A study of Caenorhabditis elegans with 8 samples.

Results

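Cytochrome P450 enzymes are haem proteins of the endoplasmic reticulum and mitochondria that insert oxygen into lipids, sterols and foreign chemicals. In the nematode Caenorhabditis elegans they make the steroid hormones that set the choice between growth and the dauer larva, build eicosanoids from long fatty acids, help to seal the eggshell, and take part in breaking down xenobiotics, much of it in the intestine. The genes are numbered by family (cyp-35), then subfamily (cyp-35A), then gene (cyp-35A2), and daf-9 is the member of family 22 that kept its genetic name.

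The 74 P450 genes were every row of the deposited count table whose WormBase symbol starts with cyp- or is daf-9, out of 20389 genes. All 74 were annotated as protein coding, and they fell into 16 families and 26 subfamilies. The largest families were family 33 with 18 genes, family 13 with 13, family 35 with 10 and family 34 with 8. Chromosome V carried 41 of them, chromosome II 12, chromosome X 8, chromosomes III and IV 6 each and chromosome I only cyp-36A1.

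Messenger RNA had been sequenced from strain VC199, which carries the deletion allele sir-2.1(ok434) IV in a gene whose product removes acetyl groups from histone H4 lysine 16. The 4 larvae libraries came from worms grown for 24 h on plates after hatching overnight, labelled L3 and given as L2/L3 in the study's methods, and the 4 embryo libraries came from eggs of mixed age freed by bleaching adults. Both stages carry the same deletion, so stage was the one contrast among them, and nothing but the replicate numbers in the titles says how the libraries of a stage are related, so p-values measure the spread between these libraries. The names of the libraries begin differently at the 2 stages, and what that stands for cannot be told apart from stage.

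The libraries held 13687095 to 22419153 gene counts in larvae and 16300947 to 31292935 in embryos. Levels are given below as CPM, the usual counts per 1e+06 gene counts, scaled with edgeR's TMM factors, and levels of different genes are compared only on the deposited TPM, which the authors normalised for gene length. Summed markers of the early embryo gave 16.4 to 32.6 CPM in larvae and 1254 to 2350 CPM in embryos, and 10 of 10 were lower in larvae. Intestinal markers gave 11624 to 18191 CPM in larvae and 1203 to 1722 CPM in embryos, with 8 of 10 higher in larvae and 1 lower. Epidermal markers gave 1934 to 2446 CPM in larvae and 394 to 458 CPM in embryos, with 2 of 5 higher in larvae and 1 lower. More cells of a tissue and more RNA per cell cannot be told apart in whole animals, and the part of tissue make-up in the results below was not tested. Adult markers (the vitellogenins and adult collagens) ran over 2.60 to 99.2 CPM in larvae, highest in replicate 1, and 2.90 to 225 CPM in embryos, highest in replicate 2. sir-2.1 itself kept 570 to 1036 counts in larvae and 1225 to 2424 in embryos, which checks no label because every library carries the deletion.

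More P450 genes were higher in larvae than lower. Of the 74 genes, 34 were called higher in larvae and 5 lower at an adjusted p under 0.05 in edgeR's quasi-likelihood test with Benjamini-Hochberg adjustment over all 13571 genes tested, 12 were tested and not called, and 23 were not tested. Over all genes tested, 36.9% were higher in larvae and 37.2% lower. With untested genes in the denominator, the 34 that rose are 45.9% of the 74 and the 5 that fell are 6.76%. A gene was tested when it reached a minimum of about 0.519 CPM in at least 4 libraries. For this minimum CPM was taken on library totals, without TMM factors. So cyp-35B1, with 1322 counts in a single library, was not tested. Of the 51 genes tested, 29 passed that minimum in every library of both stages, 17 in larvae alone, 3 in embryos alone and 2 through a mixture of libraries. A gene counted under 1 stage alone could still reach the minimum in some libraries of the other stage. Entry through 1 stage favours a difference without forcing it, so the calls are a description of the set and not a test of it. Among the 29 over the minimum in every library, 17 rose and 4 fell, where 34.8% of the 10823 such genes were higher in larvae and 36.6% lower.

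Without regard to any filter, 42 of the 74 genes had all larvae libraries above all embryo libraries and 3 had all below, against 27.7% and 27.8% of the 19004 genes with any count. The median log2 fold change of the 51 genes tested was 2.63, beside -0.03 over all genes tested, and it stayed at 2.63 when cyp-34A10, which had no embryo count, was set at its bound. Over the 29 genes above the minimum in every library the median was 1.76, beside -0.06 over the 10823 such genes. The balance between directions depends on how libraries are scaled. With library totals only, the median of all genes moved to -0.53, 27.1% of genes were higher in larvae and 48.7% lower, and 31 P450 genes were called higher and 7 lower. On the authors' TPM, tested with limma after adding 1, the median of all genes was -0.72, 21.97% of genes were higher and 56.7% lower, and 27 P450 genes were called higher and 7 lower.

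**Figure D1:**
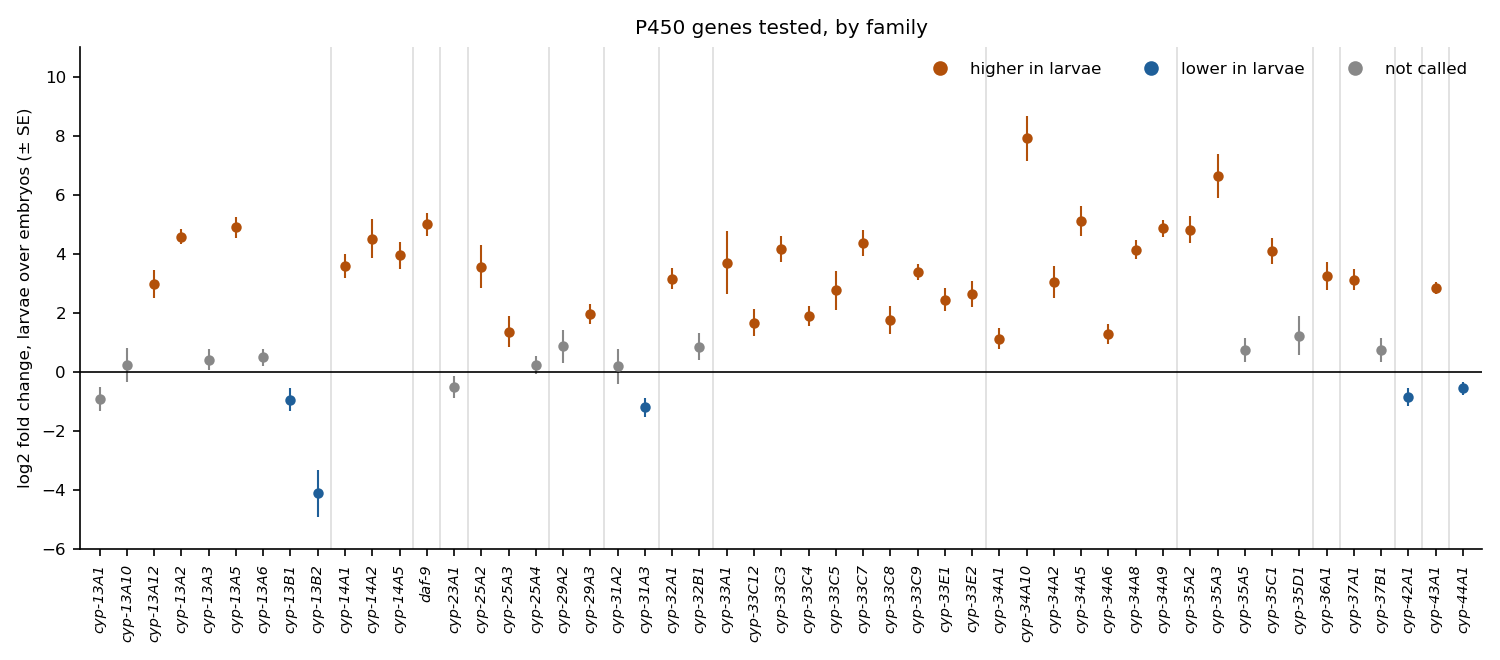
Log2 fold change (larvae over embryos, points with standard errors) of the 51 P450 genes tested, ordered by family along the horizontal axis, with orange for the 34 called higher in larvae, blue for the 5 called lower and grey for the 12 not called. All 10 tested genes of family 33 and all 7 of family 34 lie above 0, whereas family 13 runs from -4.10 for cyp-13B2 to 4.90 for cyp-13A5. Of the 51 genes, 17 reached the filter's minimum in every larvae library but not in every embryo library, which favours values above 0. Of all genes tested, 36.9% were called higher.

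The number of genes called differed between families. All 10 tested genes of family 33 rose, with log2 fold changes of 1.67 to 4.36. The same held for all 7 of family 34 (1.14 to 7.91) and all 3 of family 14 (3.58 to 4.52). Of all genes tested, 36.9% were higher in larvae. Several of these P450 genes, such as cyp-33C3, cyp-34A5, cyp-34A10 and cyp-14A2, reached the filter's minimum in every larvae library and no embryo library. Such genes had to be higher in larvae. The family counts are therefore a description and not a test. In family 35, 3 of 5 tested genes rose, cyp-35A2, cyp-35A3 and cyp-35C1. Family 13 was mixed, with 3 genes higher, 2 lower and 4 not called out of 9 tested. Untested genes numbered 8 in family 33, 5 in family 35, 4 in family 13, 2 each in families 14 and 25, and 1 each in families 29 and 34. The single members of families 42 and 44 were lower in larvae, and 1 of the 2 genes of family 31 was.

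Summed over genes, 11 of 16 families were higher in larvae and 1 lower, each with no overlap between stages and each at the smallest p the exact permutation test over 70 regroupings can give (p = 0.0286, adjusted p = 0.0381 over 16 families). Family 14 averaged 69.8 ± 29.8 CPM in larvae and 4.499 ± 2.49 CPM in embryos (SD, n = 4 each), family 34 averaged 35.8 ± 3.69 CPM in larvae and 2.84 ± 0.495 CPM in embryos, and family 43 averaged 20.2 ± 3.42 CPM in larvae and 2.82 ± 0.191 CPM in embryos. These 3 sums had ratios of larvae to embryos of 15.5, 12.6 and 7.17. Family 44, a single gene, averaged 6.02 ± 1.08 CPM in larvae and 8.82 ± 1.66 CPM in embryos. Families 23, 29, 31 and 42 overlapped between stages.

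**Figure D2:**
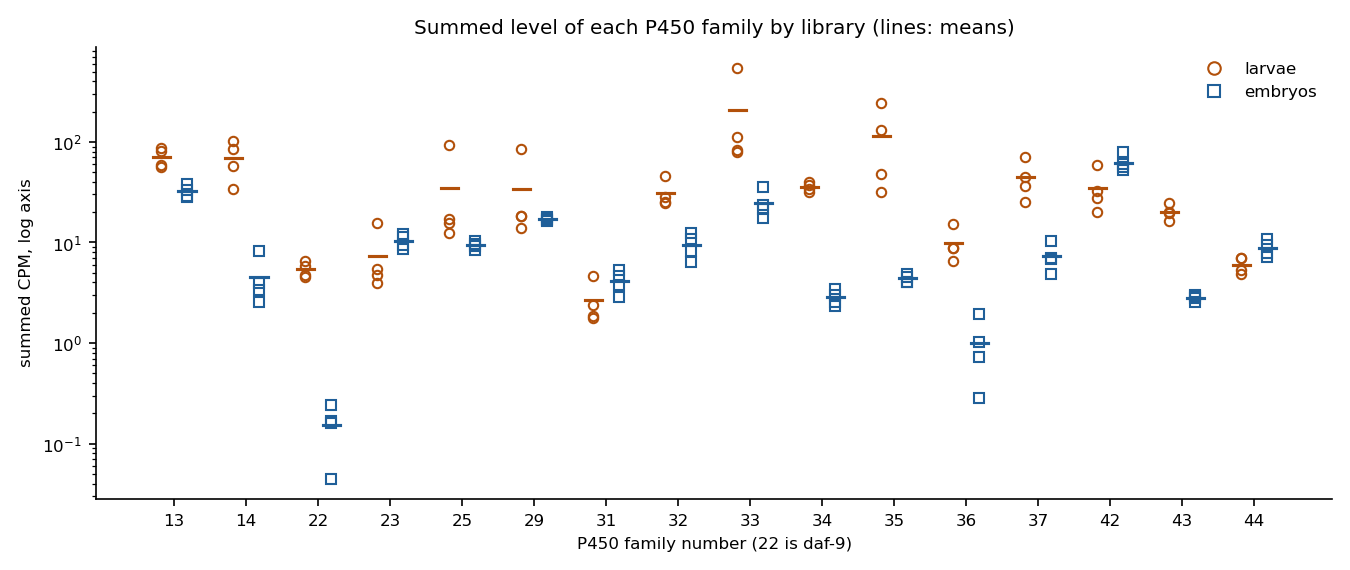
Summed CPM of each of the 16 P450 families (horizontal axis, family number; vertical axis, log scale) in each larvae library (orange circles) and embryo library (blue squares), with lines at the means. Larvae lie above embryos with no overlap in 11 families, and in families 25, 29, 32 and 33 a single larvae library, replicate 4, lies far above the other larvae.

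P450 genes together took 0.0565, 0.0433, 0.0354 and 0.107% of gene counts in larvae replicates 1 to 4, against 0.0323, 0.0207, 0.0201 and 0.0234% in embryo replicates 1 to 4. The larvae mean was 0.0605 ± 0.0320% and the embryo mean 0.0241 ± 0.00561% (SD, n = 4 each; exact permutation p = 0.0286, two-sided, the smallest that 4 against 4 can give). No larvae library overlapped the embryos. Without larvae replicate 4 the difference in means fell to 0.0210 percentage points from 0.0363, and on the summed TPM of the authors the stages overlapped, with 163 to 519 TPM in larvae and 122 to 188 TPM in embryos (exact permutation p = 0.0571).

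The most abundant P450 genes were not the same at the 2 stages. In larvae the highest mean TPM were cyp-33A1 at 44.03 ± 75.6, cyp-14A5 at 25.9 ± 12.5, cyp-35A2 at 18.0 ± 11.7, cyp-37A1 at 16.01 ± 7.64, cyp-13A2 at 15.3 ± 2.05 and cyp-42A1 at 13.05 ± 6.46 (SD, n = 4). The value of cyp-33A1 rested on replicate 4, with 157 TPM there and 4.95 to 8.58 TPM in the other larvae, and by median TPM cyp-14A5 came first. The SDs of neighbours in this order overlap. In embryos cyp-42A1 led with 42.8 ± 11.4 TPM, followed by cyp-13B1 at 13.705 ± 4.58, cyp-29A2 at 10.2 ± 0.682, cyp-33A1 at 6.41 ± 1.45, cyp-44A1 at 6.25 ± 1.31 and cyp-33C8 at 6.14 ± 3.89. cyp-42A1 alone made up 1.91 to 8.28% of the summed P450 TPM in larvae and 28.0 to 31.7% in embryos, so its share separated the stages completely. The last 3 of the embryo order did not differ beyond their spread. Mean TPM reached 1 for 42 P450 genes in larvae and 24 in embryos, and 10 for 9 genes in larvae and 3 in embryos.

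daf-9 is the steroid P450 that makes dafachronic acids, the ligands of the nuclear receptor DAF-12. It lies at chrX:6196892-6200783 (WS220, plus strand). daf-9 had 4.54, 4.80, 6.51 and 5.82 CPM in larvae replicates 1 to 4, against 0.244, 0.162, 0.167 and 0.0449 CPM in embryo replicates 1 to 4. Larvae libraries agreed closely and stood far above every embryo library. The log2 fold change was 5.00 (SE 0.39, edgeR adjusted p = 4.28e-07), and the mean TPM was 1.68 ± 0.205 in larvae and 0.0938 ± 0.0554 in embryos (SD, n = 4 each).

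Of 8 other genes of the dafachronic acid pathway, 3 were higher in larvae, none was called lower, 3 were not called and 2 (hsd-1 and ncr-2) were not tested, where 36.9% of all genes tested were higher and 37.2% lower. daf-36, the Rieske oxygenase that starts the pathway from cholesterol, had a mean of 7.15 ± 3.18 CPM in larvae and 0.655 ± 0.145 CPM in embryos, a log2 fold change of 3.42. daf-12, the receptor, averaged 244 ± 101.2 CPM in larvae and 41.3 ± 14.4 CPM in embryos, a log2 fold change of 2.56. ncr-1, a homologue of the human cholesterol transporter NPC1, rose by 1.67 on the log2 scale. dhs-16, a steroid dehydrogenase, had a log2 fold change of -0.64 (adjusted p = 0.0977), strm-1, a sterol methyltransferase, -0.56 (adjusted p = 0.155) and din-1, the corepressor of DAF-12, 0.13 (adjusted p = 0.489), all in the edgeR test.

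Every microsomal P450 takes its electrons from NADPH P450 reductase, encoded by emb-8, with cytochrome b5 as a further donor for some. emb-8 averaged 293 ± 34.7 CPM in larvae and 126 ± 22.4 CPM in embryos (SD, n = 4 each), a log2 fold change of 1.22. The cytochrome b5 genes were not called, with log2 fold changes of 0.46 for cytb-5.1 (edgeR adjusted p = 0.113) and 0.33 for cytb-5.2 (adjusted p = 0.0646). Of these 3 electron donor genes 1 was called higher, beside 36.9% of all genes tested.

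cyp-31A2 and cyp-31A3 are needed together for the lipid-rich permeability barrier that forms inside the eggshell. They lie on chromosome IV, cyp-31A2 at chrIV:11403937-11406036 and cyp-31A3 at chrIV:4761052-4762848 (WS220, both on the plus strand). Their sequences are much alike, and reads that fit both places could not be assigned to either, so the split between them is uncertain. cyp-31A3 had 1.28, 0.900, 1.56 and 1.57 CPM in larvae replicates 1 to 4, against 1.997, 2.88, 3.29 and 3.9995 CPM in embryo replicates 1 to 4. All larvae libraries lay below all embryo libraries, and the log2 fold change was -1.19 (SE 0.32, edgeR adjusted p = 0.00472). cyp-31A2 had 3.34, 0.9496, 0.204 and 0.814 CPM in larvae and 0.901, 0.891, 1.39 and 1.35 CPM in embryos. Larvae replicate 1, which also held the most adult marker RNA of the larvae, was the highest of all 8 libraries and replicate 3 the lowest, and the gene was not called (log2 fold change 0.19, SE 0.60, edgeR adjusted p = 0.783). Its fitted direction turned under several alternatives, among them leaving out larvae replicate 1 (-0.74, adjusted p = 0.162). Adult carry-over as its source was not tested.

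Of the 6 other genes of the permeability barrier, 2 were lower in larvae, 1 higher and 3 not called, where 37.2% of all genes tested were lower and 36.9% higher. cbd-1, which encodes a chitin-binding protein of the vitelline layer, averaged 13.8 ± 0.926 CPM in larvae and 47.7 ± 23.2 CPM in embryos, a log2 fold change of -1.79. perm-3 averaged 42.3 ± 4.54 CPM in larvae and 87.2 ± 11.2 CPM in embryos, a log2 fold change of -1.04. pod-2, the acetyl-CoA carboxylase that feeds all fatty acid synthesis, was higher in larvae by 1.59 on the log2 scale. fasn-1, perm-1 and dgtr-1 were not called.

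cyp-13B2 had the largest fall of the family. It had 1.28, 0.04998, 0 and 0.0626 CPM in larvae replicates 1 to 4, against 4.31, 6.76, 3.90 and 5.84 CPM in embryo replicates 1 to 4. The larvae libraries except replicate 1 were at or next to 0, and none came near the embryos. The log2 fold change was -4.10 (SE 0.80, edgeR adjusted p = 0.000583), and it held its call with each library left out in turn (highest adjusted p = 0.00313), with a log2 fold change of -6.86 without larvae replicate 1. cyp-13B1, at another site on the X chromosome, had 15.2, 3.40, 6.45 and 9.83 CPM in larvae and 23.3, 11.6, 14.5 and 16.5 CPM in embryos. Larvae replicate 1 overlapped the embryos, and the call (log2 fold change -0.94, SE 0.39, edgeR adjusted p = 0.0460) was lost in 6 of 8 fits that each left out 1 library.

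cyp-42A1, the most abundant P450 gene in embryos, had 59.3, 20.1, 32.2 and 27.7 CPM in larvae replicates 1 to 4, against 79.9, 56.4, 52.7 and 59.8 CPM in embryo replicates 1 to 4. Larvae replicate 1 fell inside the embryo range and the other larvae lay below it. The log2 fold change was -0.84 (SE 0.29, edgeR adjusted p = 0.0203), and the call was lost without embryo replicate 1 (adjusted p = 0.0706) and without larvae replicate 4 (adjusted p = 0.0507). cyp-44A1, which belongs to the mitochondrial class of P450 enzymes and lies at chrII:5503949-5506098 (WS220, plus strand), had 6.94, 6.95, 4.89 and 5.32 CPM in larvae and 7.16, 10.9, 7.86 and 9.35 CPM in embryos. The stages did not overlap but came close, and the call (log2 fold change -0.55, SE 0.23, edgeR adjusted p = 0.0441) was lost in 4 of 8 fits that each left out 1 library. With library totals only, and on the authors' TPM, the same 5 genes were called lower together with cyp-13A1 and cyp-23A1.

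Several P450 genes oxidise polyunsaturated fatty acids to eicosanoids. cyp-33E2, expressed in the pharynx and known for making eicosanoids that affect pumping, had 5.05, 7.35, 2.71 and 12.6 CPM in larvae replicates 1 to 4, against 1.29, 0.729, 1.28 and 1.17 CPM in embryo replicates 1 to 4. Larvae varied over a wide range but never reached down to the embryos, and the log2 fold change was 2.63 (SE 0.44, edgeR adjusted p = 0.000181). cyp-29A3, also linked to eicosanoid formation, had 3.34, 4.30, 5.70 and 8.02 CPM in larvae and 1.22, 0.891, 1.78 and 1.57 CPM in embryos, with a log2 fold change of 1.98 (SE 0.34, edgeR adjusted p = 0.000233). Its larvae libraries all lay above its embryo libraries. cyp-13A12, whose eicosanoid products act in the behavioural response to restored oxygen, was higher in larvae by 2.98 on the log2 scale, with 1.31 to 2.85 CPM in larvae and 0.0557 to 0.438 CPM in embryos. cyp-36A1, which acts downstream of the hypoxia pathway of egl-9 and hif-1, rose by 3.25 on the log2 scale.

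Family 35 is known for induction by xenobiotics in the intestine and for effects on stored fat. cyp-35A2, at chrV:7362298-7364186 (WS220, minus strand), had 82.7, 29.5, 17.7 and 46.5 CPM in larvae replicates 1 to 4, against 1.73, 1.34, 1.505 and 1.62 CPM in embryo replicates 1 to 4. Embryos hardly varied, and the larvae libraries lay above them all while spreading among themselves. The log2 fold change was 4.82 (SE 0.45, edgeR adjusted p = 1.61e-06). cyp-35A3 had 12.7, 3.798, 2.71 and 5.32 CPM in larvae and 0.0974, 0, 0 and 0.0899 CPM in embryos, with a log2 fold change of 6.64 (SE 0.74, edgeR adjusted p = 6.83e-06). Both genes, and cyp-35C1, were highest in larvae replicate 1 and lowest in replicate 3. cyp-35A1 was not tested and had no embryo count, and its larvae replicates 1 to 4 held 3, 4, 0 and 16 counts. Larvae were at least 2.94-fold above the floor of 3 counts per embryo library, and at least 1.23-fold above it without larvae replicate 4. cyp-35A genes are alike in sequence, so reads that fit more than 1 of them may be missing from the counts.

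**Figure D3:**
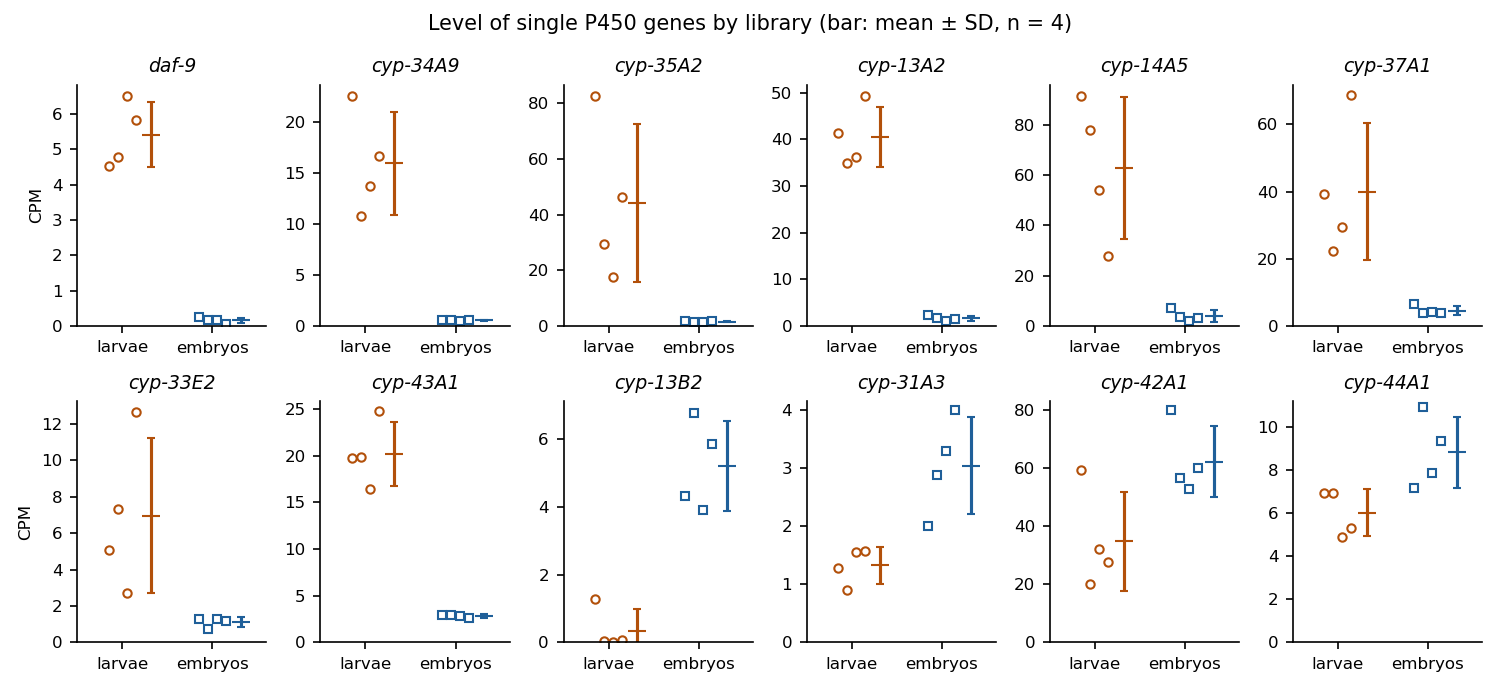
CPM of 12 P450 genes in each of the 4 larvae libraries (orange circles) and 4 embryo libraries (blue squares), with the mean and SD at the right of each group and each vertical axis starting at 0, where SD bars stop. In the upper row and the first 2 panels of the lower row every larvae library lies above every embryo library, in the panels of cyp-13B2, cyp-31A3 and cyp-44A1 every one lies below, and in cyp-42A1 larvae replicate 1 overlaps the embryos.

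Family 34 showed the largest single rise. cyp-34A10 had 1.28, 1.05, 1.15 and 2.19 CPM in larvae replicates 1 to 4 and no count in any embryo library, so larvae were at least 11.4-fold above the floor of 3 counts per embryo library. Its fitted log2 fold change of 7.91 (SE 0.75, edgeR adjusted p = 1.42e-05) depends on the prior count of the fit. cyp-34A5 had 0.942, 1.40, 1.76 and 1.82 CPM in larvae and 0.0487, 0.0405, 0 and 0.0449 CPM in embryos, with a log2 fold change of 5.11 (SE 0.50, edgeR adjusted p = 2.34e-06). cyp-34A9, also named dod-16 as a gene downstream of the transcription factor DAF-16, had 22.6, 10.8, 13.8 and 16.7 CPM in larvae and 0.560, 0.608, 0.446 and 0.539 CPM in embryos. Its larvae libraries were all high and its embryo libraries nearly equal, with a log2 fold change of 4.86 (SE 0.30, edgeR adjusted p = 8.07e-08).

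Family 14 was led by cyp-14A5, with 91.6, 78.0, 54.1 and 27.7 CPM in larvae replicates 1 to 4, against 7.26, 3.60, 2.06 and 3.01 CPM in embryo replicates 1 to 4. Replicate 4 was the lowest of the larvae and still stood above every embryo library, and the log2 fold change was 3.95 (SE 0.45, edgeR adjusted p = 7.84e-06). cyp-14A2 had 5.91, 1.499, 1.90 and 1.82 CPM in larvae and 0.244, 0.0405, 0.0557 and 0.0449 CPM in embryos, with a log2 fold change of 4.52 (SE 0.66, edgeR adjusted p = 6.09e-05). Replicate 1 was the high library at both stages.

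In family 13 the strongest rises were those of cyp-13A2 and cyp-13A5. cyp-13A2 had 41.4, 35.03, 36.3 and 49.3 CPM in larvae replicates 1 to 4, against 2.31, 1.70, 1.06 and 1.57 CPM in embryo replicates 1 to 4, with a log2 fold change of 4.57 (SE 0.26, edgeR adjusted p = 4.30e-08). Larvae libraries agreed well for this gene, which was among the 5 most abundant in larvae by mean TPM. cyp-13A5 had 11.6, 9.65, 8.62 and 7.64 CPM in larvae and 0.414, 0.243, 0.111 and 0.404 CPM in embryos, with a log2 fold change of 4.90 (SE 0.35, edgeR adjusted p = 2.33e-07). Every larvae library was far above every embryo library.

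Family 37 split. cyp-37A1, linked to the size of lipid droplets, had 39.4, 22.2, 29.5 and 68.6 CPM in larvae replicates 1 to 4, against 6.53, 3.73, 4.01 and 3.95 CPM in embryo replicates 1 to 4, a log2 fold change of 3.12 (SE 0.35, edgeR adjusted p = 7.95e-06). Its larvae libraries all lay above its embryo libraries. cyp-37B1 had 4.97, 3.25, 7.26 and 2.69 CPM in larvae and 3.77, 1.13, 2.90 and 3.01 CPM in embryos. The stages overlapped, and the gene was not called (log2 fold change 0.74, SE 0.40, edgeR adjusted p = 0.118).

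In family 33, cyp-33C7 had 9.85, 11.99, 9.50 and 14.7 CPM in larvae replicates 1 to 4, against 1.05, 0.162, 0.446 and 0.449 CPM in embryo replicates 1 to 4, with a log2 fold change of 4.36 (SE 0.43, edgeR adjusted p = 2.92e-06). The stages were well apart for this gene. cyp-33C8 had 13.5, 48.1, 25.2 and 25.05 CPM in larvae and 14.1, 2.71, 8.81 and 7.32 CPM in embryos, a log2 fold change of 1.76 (SE 0.46, edgeR adjusted p = 0.00451). Its stages overlapped through larvae replicate 1 and embryo replicate 1, and on the authors' TPM with 1 added it was not called (limma adjusted p = 0.116).

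P450 genes lie in clusters of neighbours, and the levels of neighbours are compared here on the authors' TPM. With gaps of at most 10 kb, 44 of the 74 genes formed 12 clusters. In the cluster of 8 genes cyp-13A1 to cyp-13A8 at chrII:9779123-9807473 (WS220), cyp-13A2 and cyp-13A5 rose, 3 neighbours were tested and not called, and 3 were not tested. cyp-13A1, next to cyp-13A2, had 0.195 to 0.294 TPM in larvae and 0.412 to 1.35 TPM in embryos. cyp-13A2 had 13.2 to 18.0 TPM in larvae and 0.696 to 1.77 TPM in embryos. In the cluster of 5 genes at chrV:2236029-2252523, 4 rose and cyp-33C6 was not tested. The largest cluster, chrV:3936359-3972986, holds 10 genes: cyp-35A5 and the 3 genes of subfamily 35B on the plus strand, then cyp-34A5 to cyp-34A10 on the minus strand. Of these, 5 of the 6 genes of subfamily 34A rose and cyp-34A7 was not tested, cyp-35A5 was not called, and no gene of subfamily 35B passed the filter on low counts.

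**Figure D4:**
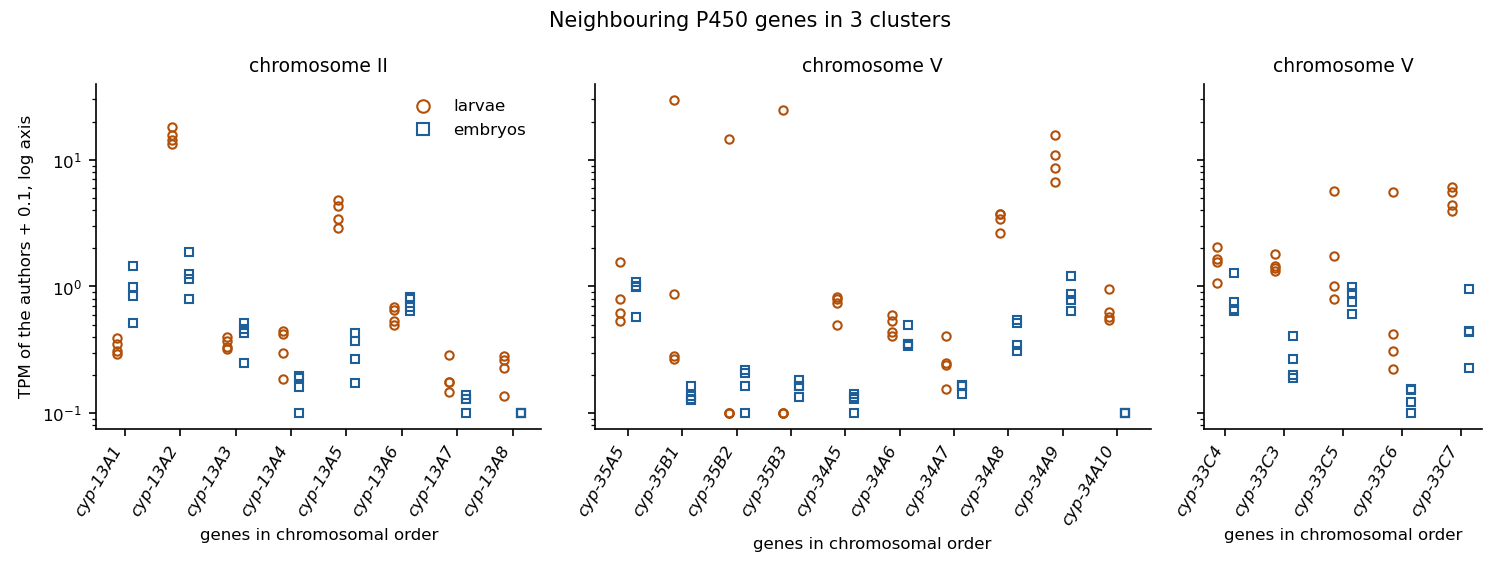
TPM of the authors plus 0.1 (log axis) of neighbouring P450 genes in chromosomal order, for the 8 genes of the chromosome II cluster, the 10 genes of the largest chromosome V cluster and the 5 genes of another chromosome V cluster, with larvae libraries as orange circles and embryo libraries as blue squares. cyp-13A2 and cyp-13A5 stand above their neighbours in larvae, and cyp-35B1, cyp-35B2, cyp-35B3, cyp-33C5 and cyp-33C6 each have 1 larvae library, replicate 4, above the rest.

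Larvae replicate 4 stood apart from the other larvae in a set of P450 genes. Of the 62 P450 genes with at least 10 counts in some larvae library, 12 (19.4%) were at least 3-fold higher in replicate 4 than in every other larvae library on CPM plus 0.1, against 0.483% of the 13658 genes that met the same minimum. The same measure gave 3 P450 genes in larvae replicate 1, where 1.85% of genes passed, and none in replicates 2 and 3, where 0.0805% and 0.0439% passed. Among embryos it gave none of 51 P450 genes in any library, and 0.0711, 0.164, 0.00711 and 0.0569% of 14063 genes in replicates 1 to 4. The rule was chosen after the values had been seen.

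The 12 genes were cyp-35B1, cyp-35B2, cyp-35B3, cyp-33A1, cyp-33C5, cyp-33C6, cyp-25A1, cyp-25A2, cyp-25A3, cyp-29A2, cyp-32B1 and cyp-35A1. The place of cyp-35A1 rested on 16 counts in larvae replicate 4. On the authors' TPM its highest larvae library was replicate 1, at 1.10 TPM against 0.746 TPM in replicate 4. cyp-35B3 had 943 counts in larvae replicate 4 and none in the other 3 larvae libraries, and its embryo libraries held 1 to 3 counts. cyp-35B2 had 583 counts in larvae replicate 4, again none in the other larvae, and 0 to 5 counts in embryos. cyp-35B1, also named dod-13 as a gene downstream of DAF-16, had 1322 counts in larvae replicate 4 against 7 to 24 in the other larvae, and 1 to 3 in embryos. These 3 genes are neighbours on chromosome V, and cyp-35A5 beside them had 1.13 CPM in larvae replicate 4, the lowest of the larvae.

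cyp-33A1 had 22.4, 11.9, 14.1 and 434 CPM in larvae replicates 1 to 4, against 10.96, 10.004, 8.47 and 7.55 CPM in embryo replicates 1 to 4. Larvae replicate 4 stood 19.2-fold above the next library on CPM plus 0.1, and the rest of the larvae lay above the embryos. The log2 fold change was 3.70 (SE 1.06, edgeR adjusted p = 0.00751) with all libraries and 0.80 (adjusted p = 0.0154) without larvae replicate 4, and on the authors' TPM with 1 added the gene was not called (limma adjusted p = 0.293). cyp-29A2, among the 3 most abundant P450 genes of embryos, had 14.4, 13.8, 8.14 and 76.6 CPM in larvae and 14.8, 16.2, 14.7 and 16.04 CPM in embryos. It was not called (log2 fold change 0.87, SE 0.57, edgeR adjusted p = 0.1804), and without larvae replicate 4 the fold change turned to -0.35 (adjusted p = 0.195), since every other larvae library lay below every embryo library.

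The 3 neighbours cyp-25A1, cyp-25A2 and cyp-25A3 on chromosome III were all high in the same library. cyp-25A3 had 7.45, 8.996, 8.01 and 44.96 CPM in larvae replicates 1 to 4, against 5.80, 7.09, 6.19 and 7.95 CPM in embryo replicates 1 to 4. The stages overlapped, and its call as higher in larvae (log2 fold change 1.36, edgeR adjusted p = 0.0350) was lost without larvae replicate 4 (0.28, adjusted p = 0.291). cyp-25A2 kept its call without that library, with a log2 fold change of 2.16 in place of 3.57. cyp-25A6, elsewhere on chromosome IV, had no count in any larvae library and 1 count in all embryos, but the authors' TPM gave it 1.14, 1.28, 0.261 and 5.00 in larvae and 1.595, 0.589, 1.06 and 1.32 in embryos, so the counts and the TPM assigned its reads differently.

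Beside these genes, the intestinal marker sum was 18191 CPM in larvae replicate 4 and 11624 to 12461 CPM in the other larvae, and the early embryo and adult sums of replicate 4 lay at 16.4 and 7.33 CPM. The intestinal sum was carried by asp-1, with 12560 CPM in replicate 4 and 7822 to 8536 CPM in the other larvae, and act-5, with 3172 CPM against 1680 to 1853 CPM. elt-7 and mtl-2, at 8.45 and 43.5 CPM, had their lowest larvae value there, and elt-2, at 23.4 CPM, lay within the range of the other larvae. The part of tissue make-up in the 12 genes was not tested. Not all P450 genes were high in that library: cyp-14A5, cyp-34A2 and cyp-35D1 had their lowest larvae value there, with cyp-35D1, which metabolises the drug thiabendazole, at 0.188 CPM against 0.7996 to 4.02 CPM in the other larvae. The 12 genes took 0.0669% of gene counts in larvae replicate 4, 0.00378 to 0.00525% in the other larvae and 0.00448 to 0.00562% in embryos. The other 62 P450 genes took 0.0317 to 0.0513% in larvae and 0.0156 to 0.0266% in embryos, a description with no test, since the split was made on these values.

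**Figure D5:**
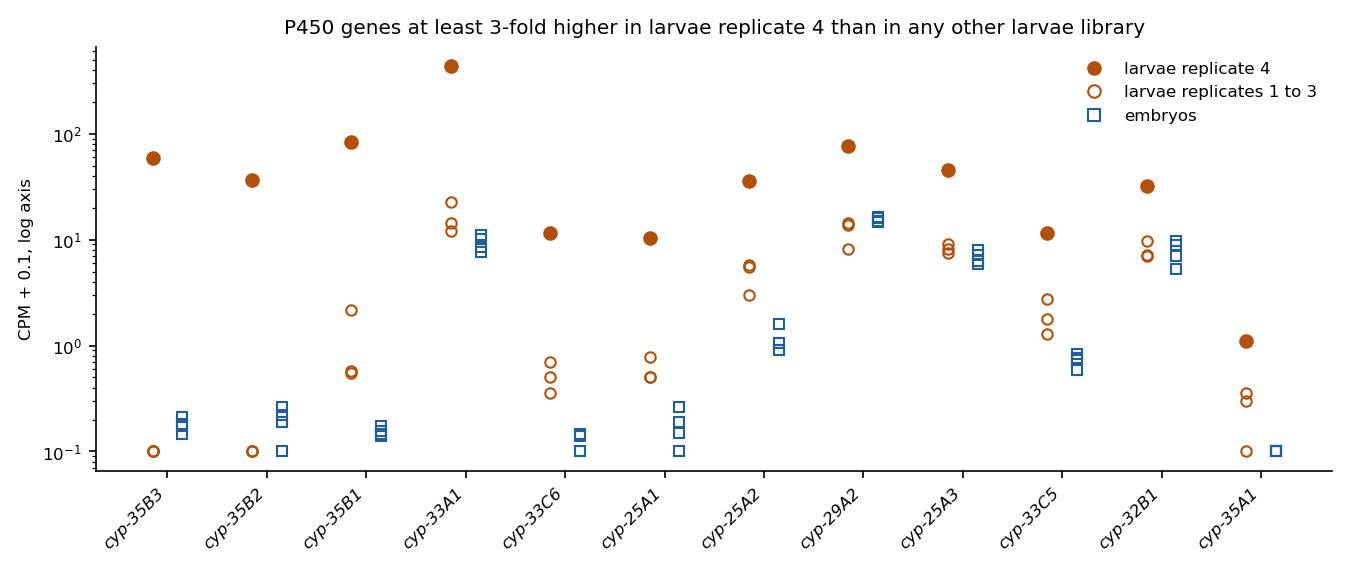
CPM plus 0.1 (log axis) of the 12 P450 genes at least 3-fold higher in larvae replicate 4 (filled orange circles) than in each of the other 3 larvae libraries (open orange circles), with embryo libraries as blue squares. For cyp-35B3 and cyp-35B2 the other larvae libraries sit at the bottom of the axis with no count, and for cyp-29A2, cyp-25A3 and cyp-32B1 they lie within or near the embryo range.

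Most stage calls did not rest on that library. Without larvae replicate 4, 33 of the 34 higher calls were kept and cyp-25A3 was lost, cyp-35D1 was added, and 2 of the 5 lower calls were kept, cyp-13B2 and cyp-31A3. Over the 8 fits that each left out 1 library, 33 of the 34 higher calls and 2 of the 5 lower calls held in every fit. The median log2 fold change of the P450 genes tested was 1.82 without larvae replicate 4.

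Of 6 regulators of detoxification genes set beside the P450 genes, 1 rose, 2 fell and 3 were not called, where 36.9% of all genes tested were higher in larvae and 37.2% lower. nhr-8, a nuclear receptor needed for resistance to xenobiotics, averaged 25.3 ± 8.19 CPM in larvae and 10.2 ± 1.17 CPM in embryos (SD, n = 4 each), a log2 fold change of 1.31. ahr-1, the worm homologue of the aryl hydrocarbon receptor, averaged 3.99 ± 0.665 CPM in larvae and 8.41 ± 1.78 CPM in embryos, and its partner aha-1 averaged 39.0 ± 2.75 CPM in larvae and 58.4 ± 3.90 CPM in embryos, with log2 fold changes of -1.07 and -0.58. nhr-49, mdt-15 and skn-1 had log2 fold changes of -0.22, -0.13 and -0.09 and were not called.

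The 23 P450 genes left untested ranged from cyp-25A6, with 1 count over all libraries, to cyp-35B1, with 1322 counts in a single library. None of the 74 had 0 counts in every library. cyp-13A8, like cyp-34A10 and cyp-35A1, had no embryo count, and its 22 larvae counts put it at least 2.70-fold above the floor. cyp-33E3 had 28 counts in larvae and 2 in embryos, a ratio of 23.8 after scaling (95% exact interval 5.99 to 206), and cyp-13A7, inducible by rifampicin, had 13 in larvae and 3 in embryos, a ratio of 7.36 (2.02 to 40.3). Such intervals and floors cover counting error only. When every gene with any count was tested, 49 of the 74 P450 genes were called higher in larvae and 5 lower. Over all 19004 such genes that fit called 5839 higher and 5652 lower.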

How the data were processed

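The authors aligned single-end reads of poly(A)-selected, stranded libraries to WS220 with Tophat 2.1.1 and counted them per gene with HTSeq (0.6.1p1 in the submitters' processing notes). The deposited raw counts are whole reads per gene for 20389 genes, and the 5 closing rows of HTSeq totals were left out. The deposited TPM were scaled by the authors to transcript length and depth, and the processing notes also name Cufflinks 2.2.0 without giving its role, so the tool behind the TPM is not given in the sources used here. The TPM table has 14 further columns that match no labelled sample and were not used. The deposited tables of the authors' own comparisons hold fold changes and p-values, and only their gene identifiers were used. Loci come from the TPM table, whose starts count from 0, so 1 was added.

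Stages were compared with edgeR 4.0.16 (TMM, filterByExpr, quasi-likelihood test, Benjamini-Hochberg over all genes tested, threshold 0.05) on all 8 libraries, with SE taken from the fold change and its F value. Sums and shares used exact permutation tests in scipy 1.17.1 over 70 regroupings. Fold changes against a stage with no count are bounds against a floor of 3 counts per library. On simulated counts for 13571 genes with 200 changed, edgeR recovered 194 with 8 false calls and DESeq2 recovered 193 with 18. On the deposited counts edgeR called 10058 genes, and recovery with so many genes changed was not tested.

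Genes named with values were the 10 largest rises and falls among genes called and not overlapping, the 6 most abundant by mean TPM at each stage, 10 genes chosen for their known roles, genes with no count, and genes with 1 library apart. Genes of the partner lists were also named. Others are named for a list, a position or a described role. The members and lists were chosen with earlier results of these data known. Alternatives were DESeq2 1.42.0, other scalings, no filter, a test against a 2-fold change, limma 3.58.1 on log2 TPM, a replicate block and leaving out each library.

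No sequences are shown, since the references used here hold none.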

Additional observations from a re-analysis of the deposited data

Results flagged for a closer look

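A single library lay outside the other 3 of its stage in 27 of 147 sets of 4 libraries examined. The sets were 16 family sums and the P450 share at each stage, plus single genes with at least 10 counts in a library there. Chance would give about 7.35 if values within a stage were normally distributed, which CPM values need not be. The sets overlap, since genes enter family sums. A set counted when the gap to the nearest library, divided by the range, exceeded Dixon's critical value for 4 values. No explanation was tested for any of them.

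Larvae replicate 4 was the high library in 15 sets. Its family sums were 92.86 CPM in family 25 against 12.3 to 17.04 in the other larvae, 84.72 CPM in family 29 against 14.05 to 18.4, 45.65 CPM in family 32 against 24.9 to 28.2, and 549 CPM in family 33 against 79.4 to 112. The genes were cyp-25A1 (10.33 CPM), cyp-25A2 (35.38), cyp-25A3 (44.96), cyp-29A2 (76.58), cyp-32B1 (31.87), cyp-33A1 (433.6), cyp-33C5 (11.4), cyp-33C6 (11.52), cyp-35B1 (82.78), cyp-35B2 (36.51) and cyp-35B3 (59.05).

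Larvae replicate 1 was high for cyp-13B2 (1.284 CPM against 0 to 0.0626 in the other larvae), cyp-14A2 (5.908 against 1.499 to 1.90), cyp-23A1, the sole gene of family 23 (15.5 against 3.95 to 5.45), and cyp-35A5 (3.596 against 1.13 to 1.55). Larvae replicate 3 was low for cyp-14A1, with 1.968 CPM against 4.37 to 4.85.

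Embryo replicate 1, the deepest library, was high for cyp-14A2 (0.2435 CPM), cyp-32A1 (3.604 against 1.22 to 1.30 in the other embryos), cyp-33E1 (2.192 against 0.932 to 1.08), cyp-34A6 (0.4871 against 0.315 to 0.334) and cyp-37A1 (6.527 against 3.73 to 4.01). Embryo replicate 3 was low for cyp-35A5, with 0.6688 CPM against 1.22 to 1.30.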

How the results depend on the processing

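The count of P450 genes called, 39, stayed within 1.5 times of itself under all 16 alternatives, and of 24 named genes tested 15 kept their direction and call under all of them. Lower calls were fewer than higher calls throughout, with 1 of 5 left in a test against a 2-fold change and 2 to 7 with 1 library left out. Over all genes that test called 5913 (3174 higher, 2739 lower), and the authors' TPM called 2981 higher and 7665 or 7693 lower with 0.1 or 1 added. Of the 23 genes of the partner lists, 10 were called, and 17, 16 and 17 were with TPM plus 0.1, TPM plus 1 and library totals, and 5 against a 2-fold change. The median log2 fold change of P450 genes was 1.11 and 0.67 on TPM plus 0.1 and 1, 2.12 with library totals and 1.82 to 2.80 with 1 library left out. The difference in P450 share was 0.0151 percentage points on summed TPM (exact permutation p = 0.0571) and 0.0210 to 0.0447 with 1 library left out, where 4 against 3 cannot go below p = 0.0571. Family sums passing the threshold numbered 12, then 7 without the most abundant gene of each family, where single-gene families drop out, and 0 with any 1 library left out, again because no smaller p is possible.

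Among the 24 named genes tested, directions turned for 3, none of them called. Genes outside that set could turn too, such as cyp-13A10, not called, from 0.25 to -0.65 without larvae replicate 4. The values of the 3 named genes follow. cyp-29A2 had -0.53 and -0.44 on TPM plus 0.1 and 1 and -0.35 (without larvae replicate 4) to 1.17 with 1 library left out. cyp-31A2 had -0.76 and -0.31 on TPM, -0.28 with library totals, -0.14 with the replicate block and -0.74 (without larvae replicate 1) to 0.54 with 1 library left out. cyp-37B1 had -0.069 and -0.058 on TPM. The cause was not tested.

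Replicate numbers are shared between stages, but same-numbered libraries did not deviate together (r = -0.15, -0.19, 0.07 and -0.07), so the numbers were not taken as pairs. With the replicate block, 32 P450 genes were called higher and 4 lower, 36 in all, with a median of 2.21, and among named genes cyp-33A1 (1.63, adjusted p = 0.115) and cyp-44A1 (-0.55, adjusted p = 0.0707) were not called. Raising or lowering the ratio that sets larvae replicate 4 apart gave 13 genes at 2-fold and 8 at 5-fold, and other scalings, an added 1 CPM or the authors' TPM gave 11 (chosen after seeing the data). The 23 untested genes did not reach the minimum in 4 libraries. DESeq2 gave cyp-33A1 no adjusted p.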

Other observations

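Genes outside the P450 family also stood apart in larvae replicate 4 by the 3-fold measure, and 66 of 13658 genes passed in all. Of these, 12 were P450 genes and 24 had no gene name, and the named rest was spread over many families. The pud genes gave 4 of 5 with enough counts, and the related pudl-1 passed too. Flavin monooxygenases gave 2 of 5 (fmo-2 and fmo-5). Other families of detoxification gave single genes, beside 0.483% of all genes. These were 1 of 59 UDP-glucuronosyltransferases (ugt-37, 1.69%), 1 of 37 gst genes (gst-19, 2.70%), 1 of 13 P-glycoproteins (pgp-13, 7.69%) and 1 of 2 gstk genes (gstk-1).

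fmo-5 had 240 CPM in larvae replicate 4 and 27.8 to 44.4 CPM in the other larvae, pgp-13 had 101.4 CPM against 2.05 to 6.25 CPM, and pud-3 had 223 CPM against 6.31 to 16.4 CPM. sod-3, a superoxide dismutase and target of DAF-16, passed with a ratio of 4.03. The 2 genes with the highest ratios of all 66 were cyp-35B3 and cyp-35B2. These genes were picked out after their values were seen, with no test.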
